A study of Mus musculus with 3 samples.

Results

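Gata2, Gata3, Gata4 and Gata6 are 4 of the 32285 genes counted in single cells of gastrulating mouse embryos. They were chosen by name and not by any measured value, as members of the GATA family of transcription factors that act in tissues other than blood. The family has 6 genes in the files, and the remaining members, Gata1 and Gata5, are given only as relatives. The cells came from mouse embryos of the ARC strain, labelled as normal in all groups. Each of 3 groups had 1 library. The libraries were made from embryos of embryonic day 7.0 (E7.0), from embryos of E7.25 and, for the latest stage, from only the posterior region of E7.5 embryos. The sources used here do not give how many embryos a library pooled. With 1 library per group no test between groups was run, and stage, library and, at E7.5, the dissected region cannot be told apart.

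GATA factors bind the short DNA sequence that gave the family its name. They fall into Gata1, Gata2 and Gata3, best known from blood, and Gata4, Gata5 and Gata6, best known from heart and endoderm. Gata4 and Gata6 act in the extraembryonic endoderm of the early embryo and later in gut and heart, while Gata2 and Gata3 also act in the trophoblast lineage. Many GATA factors work with the cofactors Zfpm1 and Zfpm2 (friend of GATA), which bind the GATA protein and not the DNA.

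Gata2 lies on chromosome 6 (88193891 to 88207032, forward strand), Gata3 on chromosome 2 (9857078 to 9890034, reverse strand) and Gata4 on chromosome 14 (63198922 to 63271692, reverse strand) in the GENCODE M21 annotation of GRCm38. The RefSeq table of promoters on GRCm38.p6 matched 2 of the 4 members, Gata2 with 2 starts and Gata3 with 1. Gata4 and Gata6 were not matched. The sequences are shown because Gata2 and Gata3 are the members that trophoblast-like cells used below. The libraries count the 3' ends of transcripts and do not tell which start of Gata2 or Gata3 was used. The Gata3 start, base 9878600, and the second Gata2 start, base 88198664, lie inside the gene spans given above. On its strand the Gata3 span begins at base 9890034, and no window before that base is shown. Each of the first 3 lines gives the 250 bases before a start, 5' to 3'. The last line gives 30 bases around the only match found to the family's own motif.
Gata2, chr6:88193641-88193890, forward strand: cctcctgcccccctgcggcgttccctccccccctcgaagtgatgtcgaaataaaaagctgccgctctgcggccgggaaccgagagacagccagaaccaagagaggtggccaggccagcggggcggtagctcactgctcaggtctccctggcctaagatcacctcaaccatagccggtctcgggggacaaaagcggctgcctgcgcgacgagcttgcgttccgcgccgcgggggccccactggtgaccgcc
Gata2, chr6:88198414-88198663, forward strand: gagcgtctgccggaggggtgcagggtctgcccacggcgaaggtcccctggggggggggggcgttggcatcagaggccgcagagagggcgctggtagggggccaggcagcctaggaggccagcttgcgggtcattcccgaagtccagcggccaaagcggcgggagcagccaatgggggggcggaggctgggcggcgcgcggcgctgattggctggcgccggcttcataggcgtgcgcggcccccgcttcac
Gata3, chr2:9878601-9878850, reverse strand: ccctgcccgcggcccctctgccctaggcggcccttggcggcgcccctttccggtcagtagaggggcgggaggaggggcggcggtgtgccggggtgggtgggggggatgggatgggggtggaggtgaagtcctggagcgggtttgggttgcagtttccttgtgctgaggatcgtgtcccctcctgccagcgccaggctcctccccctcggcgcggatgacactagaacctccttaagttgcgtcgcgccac
Gata3, chr2:9878551-9878580, reverse strand: ctgcctggcgccgtctTGATAGtttcagaa
Sequence AGATAA was searched for on both strands, and so was AGATAG. The forms that start with T, namely TGATAA and its relative TGATAG, were searched for in the same way. All 4 share the core of the family's name and may overlap. Capitals mark a match. No match was found in the 250 bases before any of these 3 starts, where 26.5% of all 32851 promoters hold at least 1. In the full windows of 300 bases, with 50 bases after the start, Gata3 held 1 match, TGATAG at 37 bases after its start, and Gata2 held none. Of all promoters, 29.8% hold a match in a window of that length. A match is a description of the letters and not of a bound site.

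Where 3 values stand in a row, they are given in order of stage, E7.0, then E7.25, then the posterior region of E7.5. A kept cell had at least 1000 detected genes, and mitochondrial genes gave no more than 10% of its unique molecular identifiers (UMIs, counts of single captured RNA molecules). The kept cells numbered 7778, 4988 and 7868, with a median of 11166, 8161 and 9003.5 UMIs. Between 7 and 20 cell barcodes were shared by each pair of libraries. Cells were grouped into classes by clustering without any gene whose symbol starts with Gata, so the classes do not depend on the members. A class is named by its likeness to fixed markers. The epiblast and streak-like, trophoblast-like and both mesoderm-like classes lay mostly in different clusters in each library, and so did the endoderm-like classes at E7.25, so these classes do not compare the same cluster of cells between libraries. Levels are UMIs of a gene per 1000000 UMIs of the same cells (CPM). They are 3' counts and are not scaled to gene length. Brackets in the text hold 95% intervals for counting error only, and no spread between embryos is known. Gata6, the member with no position above, lies on chromosome 18 (11052064 to 11085635, forward strand), and all 4 members are protein-coding. Gata3 overlaps 3 small genes with at most 6 UMIs each in a library. Gata6 overlaps 1010001N08Rik on the other strand, with 132, 18 and 36 UMIs against 4369, 1199 and 1500 of Gata6. No source used here says whether the counting used strand.

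The description of these genes as GATA factors outside blood did not hold for Gata2. Gata2 stood at 79.8 CPM (61.5 to 102), 118 CPM (98.6 to 140) and 101 CPM (77.5 to 129) in haemato-endothelial-like cells, the forerunners of blood and vessels. This was its highest level in every library. These cells made up 0.733%, 2.53% and 0.763% of cells, and they held 50%, 36.8% and 35% of all Gata2 UMIs. Every other class stood at 26.0 CPM or less. The same small class held at most 10.8% of the UMIs of Gata3, 2.20% of those of Gata4 and 4.25% of those of Gata6. It held only 0.768%, 2.53% and 0.807% of the UMIs of all genes, so these small shares do not mean low levels. At E7.0 Gata6 stood there at 98.5 CPM and Gata4 at 48.6 CPM.

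The other 3 members each had another pattern. Gata4 was highest in visceral endoderm-like cells in all 3 libraries. Gata6 was highest in definitive endoderm and gut-like cells at E7.0, in embryonic mesoderm-like cells at E7.25 and in extraembryonic mesoderm-like cells at E7.5 posterior. In each library the interval of its highest class overlapped that of haemato-endothelial-like cells, and at E7.25 also those of 2 further classes. Without a deep cluster described below, extraembryonic mesoderm-like cells had the highest Gata6 level at E7.25 too, at 72.3 CPM. Gata3 was highest in trophoblast-like cells at E7.0 and E7.25, the libraries where that class had 50 cells or more, and at E7.0 its interval overlapped that of haemato-endothelial-like cells (17.5 CPM, 9.55 to 29.3).

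**Figure D1:**
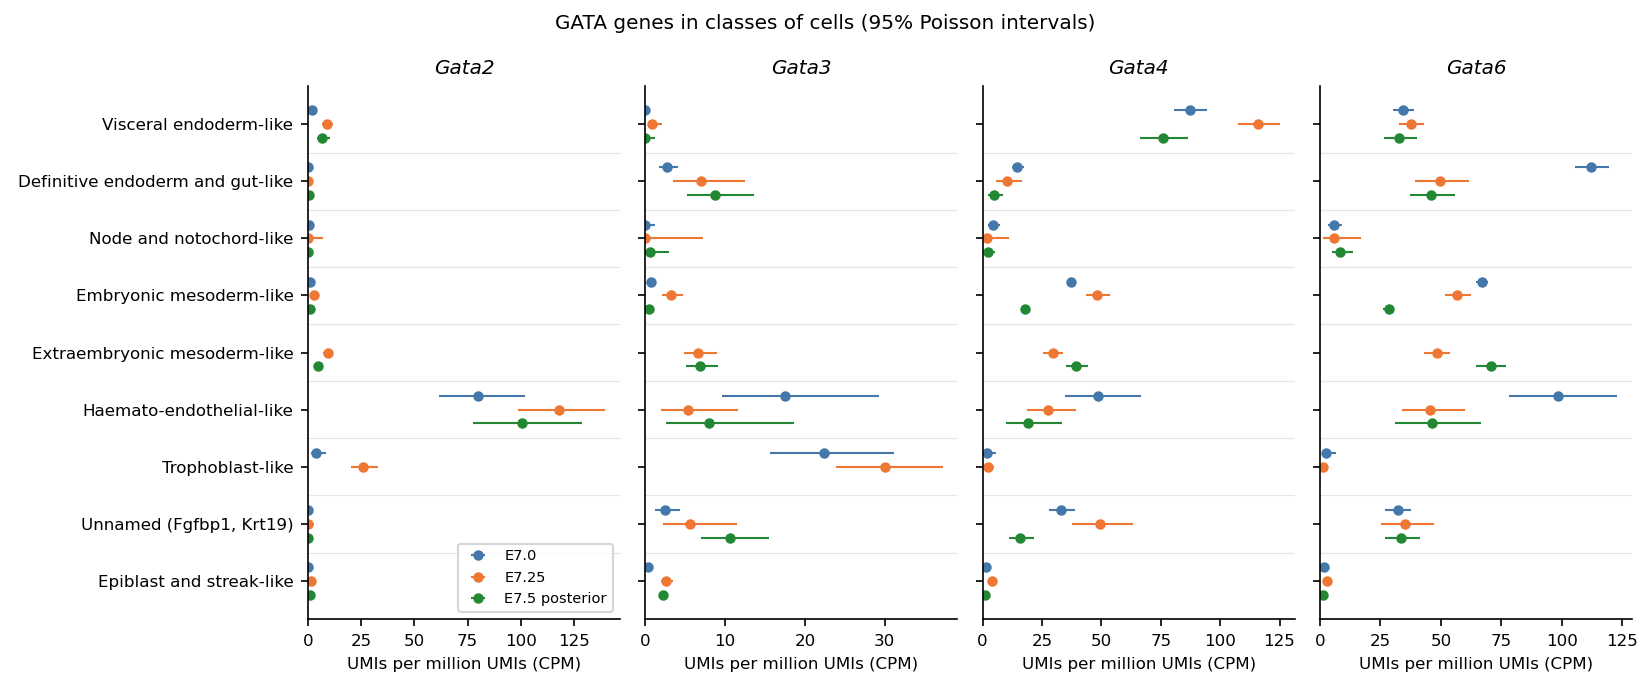
Level of each GATA gene (CPM, horizontal axis, linear, a different range in each panel) in classes of cells (vertical axis) for E7.0 (blue), E7.25 (orange) and E7.5 posterior (green). Points are sums over all cells of a class with 50 or more cells, bars are 95% Poisson intervals. Gata2 peaks in haemato-endothelial-like cells (79.8 to 118 CPM), Gata3 in trophoblast-like cells (22.4 and 30.003 CPM), Gata4 in visceral endoderm-like cells (75.8 to 116 CPM) and Gata6 is spread over endoderm and mesoderm.

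The share of a gene's UMIs that a class holds also depends on how many cells of that class a library captured. For Gata4 the visceral endoderm-like class held 24.8%, 47.2% and 22.6% of the UMIs in order of stage, while it held 6.99%, 12.9% and 3.86% of the UMIs of all genes. For Gata6 the embryonic mesoderm-like class held 63.0%, 35.9% and 40.3%, and the definitive endoderm and gut-like class held 23.4%, 6.51% and 6.67%. Trophoblast-like cells were under 50 at E7.5 posterior. With the filters and clusters used here, the epiblast and streak-like class there held 40.3% of Gata3 UMIs, at only 2.17 CPM. In that library the epiblast and streak-like class held 48.3% of the UMIs of all genes.

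**Figure D2:**
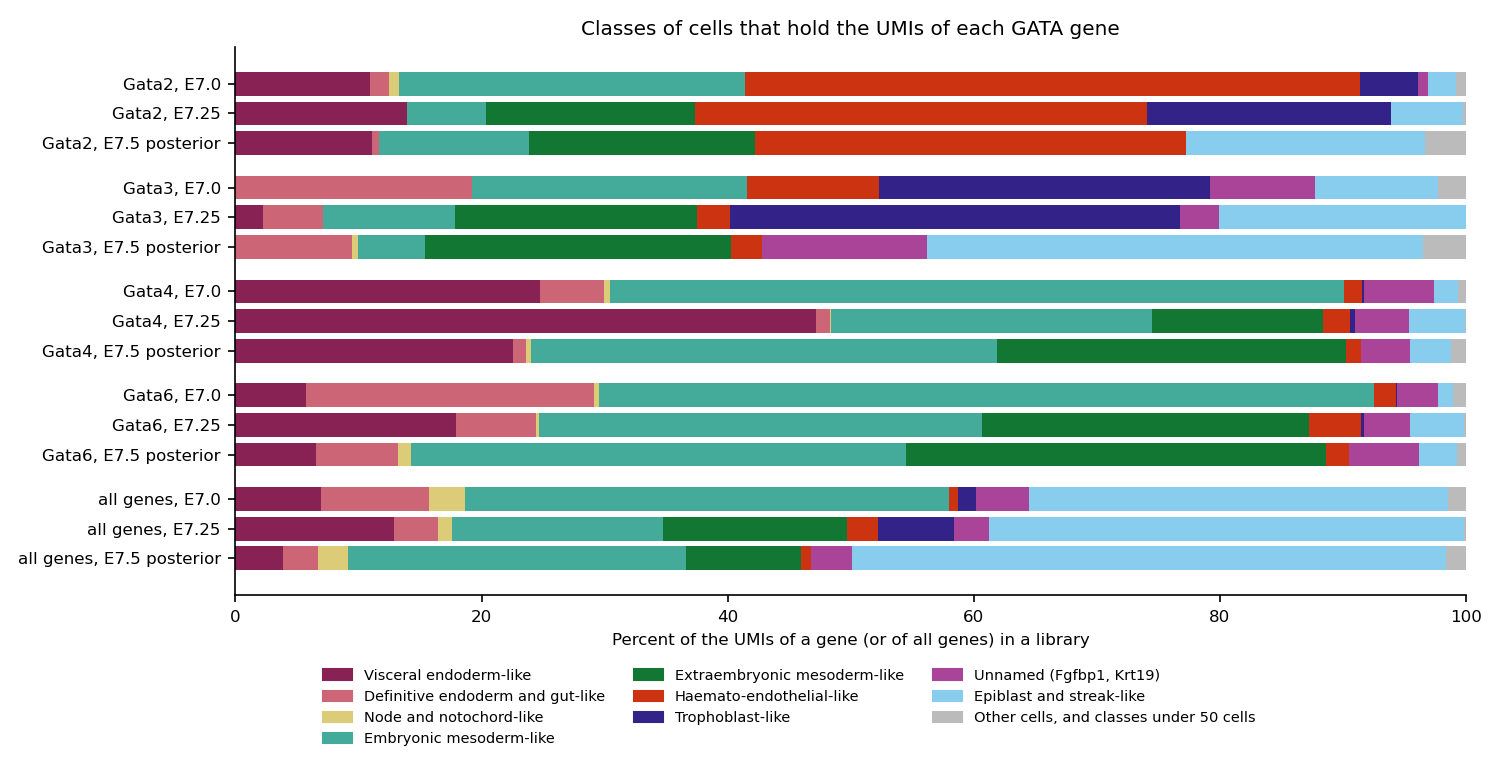
Percent of the UMIs of each GATA gene (horizontal axis) that each class of cells holds (colours), in each library (vertical axis), with the UMIs of all genes as a reference in the lowest 3 bars. Gata2 UMIs lie more in the small haemato-endothelial-like class than in any other (50%, 36.8% and 35%), and 47.2% of Gata4 UMIs at E7.25 lie in visceral endoderm-like cells.

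In endoderm, Gata4 was higher in the extraembryonic than in the embryonic layer in every library, and among the classes the Gata6 intervals of the layers were apart only at E7.0, with the embryonic layer higher. The Gata6 value was also higher in the embryonic layer at E7.25 and E7.5 posterior, and overlap of intervals does not show equal levels. Visceral endoderm, the extraembryonic layer that feeds the early embryo, is marked by Ttr, which encodes the carrier protein transthyretin. In visceral endoderm-like cells Gata4 stood at 87.3 CPM (80.7 to 94.4) at E7.0, 116 CPM (107 to 125) at E7.25 and 75.8 CPM (66.3 to 86.4) at E7.5 posterior. Gata6 stood there at 34.3 CPM (30.2 to 38.8), 37.5 CPM (32.7 to 42.9) and 32.7 CPM (26.6 to 39.9). Gata6 thus differed little between the libraries in this class, with overlapping intervals, while Gata4 was highest at E7.25. The log2 ratio of Gata4 for E7.25 over E7.0 was 0.41 (0.25 to 0.57), and it became -0.10 at a limit of 5% mitochondrial UMIs, where the rule for doublets changed as well. These cells lay in clusters 9 and 19 at E7.0 and E7.5 posterior and mostly in cluster 12 at E7.25. Without the shallow cluster 19, all 34 values of the members in this class stayed within their intervals.

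Definitive endoderm, which leaves the streak to form the gut, had the opposite balance. It is marked here by Sox17, a transcription factor of endoderm that visceral endoderm also expresses, with Foxa2 and Cer1. In definitive endoderm and gut-like cells Gata6 stood at 112 CPM (105 to 119) at E7.0, 49.4 CPM (39.1 to 61.7) at E7.25 and 45.7 CPM (37.2 to 55.6) at E7.5 posterior. Gata4 stood at 14.6 CPM (12.2 to 17.3), 10.1 CPM (5.80 to 16.5) and 4.57 CPM (2.19 to 8.41). The Gata6 level at E7.0 lay above both later libraries, with intervals that do not overlap. In both later libraries its interval overlapped that of visceral endoderm-like cells. The log2 ratio of E7.25 over E7.0 was -1.18 (-1.53 to -0.85) for Gata6. Of all genes at 20 CPM or more in this class, 2.27% were at least 2-fold lower at E7.25 than at E7.0. The class held 748, 180 and 243 cells, mostly in cluster 8 at E7.0 and E7.5 posterior and in cluster 21 at E7.25.

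The ratio of Gata4 to Gata6 UMIs separated the endoderm layers in every library. Visceral endoderm-like cells had 2.55 Gata4 UMIs (2.20 to 2.96) for each Gata6 UMI at E7.0, 3.09 (2.64 to 3.62) at E7.25 and 2.32 (1.82 to 2.97) at E7.5 posterior. Definitive endoderm and gut-like cells had 0.130 (0.108 to 0.156), 0.205 (0.112 to 0.354) and 0.10 (0.0465 to 0.192). Embryonic mesoderm-like cells lay between them, at 0.558 (0.524 to 0.594), 0.852 (0.739 to 0.981) and 0.631 (0.553 to 0.718). Since it compares 2 genes in the same cells, this ratio does not depend on how the libraries were scaled.

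The endoderm layers were also measured in gates that use only marker UMIs and no clusters. A gate here is a minimum of marker UMIs in a cell thinned at random to 5000 UMIs. Cells with 20 or more Ttr UMIs (335, 417 and 150 cells, of which 91.9% to 93.3% were visceral endoderm-like) had Gata4 at 83.2, 115 and 77.9 CPM and Gata6 at 32.1, 33.5 and 38.6 CPM. Cells with 2 or more Sox17 UMIs and fewer Ttr UMIs than that had Gata6 at 123 CPM (113 to 134) at E7.0, 75.3 CPM (53.3 to 103) at E7.25 and 41.2 CPM (31.4 to 53.2) at E7.5 posterior. Gata4 stood in these Sox17 cells at 20.5 CPM (16.5 to 25.1), 23.8 CPM (12.3 to 41.5) and 13.3 CPM (7.99 to 20.7). Of the Sox17 cells, 80.1%, 61.4% and 57.8% were definitive endoderm and gut-like. Gata4 was higher in the Ttr cells in every library. Gata6 was higher in the Sox17 cells at E7.0 and E7.25, with intervals that do not overlap, and at E7.5 posterior the intervals overlapped.

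Cells with a Sox17 UMI were then split by their Ttr UMIs, an alternative added after the data were examined. With 0 to 4 Ttr UMIs, Gata4 stood at 16.2 CPM in 487 cells at E7.0, 11.2 CPM in 120 cells at E7.25 and 7.86 CPM in 230 cells at E7.5 posterior. With 5 to 19 Ttr UMIs it stood at 50.7 CPM (124 cells), 94.6 CPM (61 cells) and 69.0 CPM (57 cells). With 20 to 49 it stood at 82.1 CPM (91 cells) at E7.0 and 119.6 CPM (73 cells) at E7.25. Gata4 was thus higher in each bin of higher Ttr, in each library that had the bin. The intervals of the bin of 5 to 19 did not overlap those of the bin of 0 to 4 in any library, and at E7.25 they overlapped those of the bin of 20 to 49.

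Gata6 did not follow Ttr in that way. At E7.0 it stood at 112 CPM (104 to 120) with 0 to 4 Ttr UMIs, 33.6 CPM (25.7 to 43.2) with 5 to 19 and 28.8 CPM (19.8 to 40.5) with 20 to 49. At E7.25 the values were 47.9, 48.2 and 40.9 CPM, with intervals that overlap, and at E7.5 posterior 40.0 and 41.4 CPM. The number of Gata4 UMIs for each Gata6 UMI went from 0.145 to 1.51 and 2.85 over the bins at E7.0, from 0.233 to 1.96 and 2.92 at E7.25, and from 0.196 to 1.67 at E7.5 posterior.

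**Figure D3:**
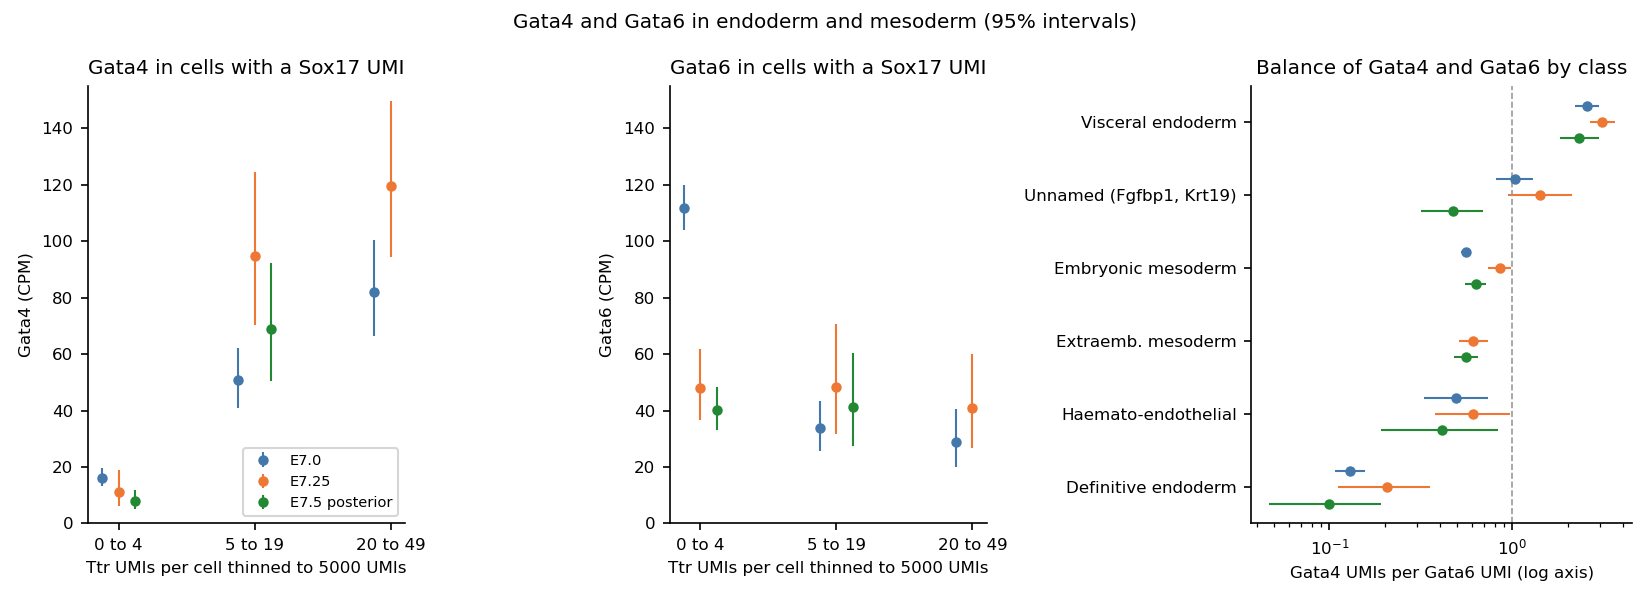
Left and middle, Gata4 and Gata6 (CPM, vertical axes) in cells with a Sox17 UMI, by their Ttr UMIs (horizontal axes). Right, Gata4 UMIs per Gata6 UMI (log axis) in classes of cells, where the dashed line marks equal numbers. Points are sums over the cells of a library (blue E7.0, orange E7.25, green E7.5 posterior) and bars are 95% intervals. Gata4 is higher in each bin of higher Ttr, and the ratio lies above 2 in visceral endoderm-like cells and at 0.205 or below in definitive endoderm and gut-like cells.

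Gata2 and Gata3 also differed between the endoderm layers, at low levels. In visceral endoderm-like cells Gata2 stood at 1.92 CPM (1.05 to 3.22), 8.73 CPM (6.48 to 11.5) and 6.68 CPM (4.08 to 10.3) in order of stage. Gata3 had 0 UMIs there in 664 cells at E7.0 and 0 in 366 cells at E7.5 posterior, where the limit that a count of 0 allows, set at 3 counts and below the upper end of a Poisson interval, is 0.411 and 1.002 CPM, or up to 0.452% and 0.820% of cells with a UMI. At E7.25 it stood at 0.873 CPM (0.284 to 2.04). The Ttr gate, which also holds cells of other classes, had 4, 4 and 2 Gata3 UMIs. In definitive endoderm and gut-like cells the order was reversed. Gata3 stood at 2.74 CPM (1.77 to 4.05), 6.97 CPM (3.48 to 12.5) and 8.68 CPM (5.23 to 13.6), and Gata2 had 2, 0 and 1 UMIs, where 0 allows up to 1.90 CPM. Of the 12 haemato-endothelial markers, 2 reached 5 CPM in visceral endoderm-like cells in each library and their summed level was 90.2, 105 and 104 CPM, against 87.6, 85.0 and 76.7 CPM in epiblast and streak-like cells. One of those at 5 CPM was Runx1, a regulator of blood formation, at 35.8, 58.0 and 42.8 CPM against 2.42, 2.80 and 1.68 CPM in epiblast and streak-like cells. Cdh5, Gfi1b and Sox18 were at 0 in visceral endoderm-like cells in all 3 libraries.

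A cluster led by Fgfbp1 and Krt19 (279, 182 and 195 cells) was left unnamed. It held all 15 visceral endoderm markers at 5 CPM or more in each library, together with 8 to 10 of the 11 definitive endoderm markers. Such a count does not by itself set the cluster apart. Extraembryonic mesoderm-like cells at E7.25, described below, held nearly as many visceral endoderm markers at that level. The Gata4 level of the unnamed cluster was 33.0 CPM (27.9 to 38.7) at E7.0, 49.3 CPM (37.8 to 63.2) at E7.25 and 15.7 CPM (11.2 to 21.4) at E7.5 posterior, while Gata6 stood at 32.1, 35.0 and 33.5 CPM. It had 1.03, 1.41 and 0.471 Gata4 UMIs for each Gata6 UMI, between the values of the endoderm layers, where embryonic mesoderm-like cells also lay. Gata3 stood there at 2.45 CPM (1.22 to 4.38), 5.57 CPM (2.24 to 11.5) and 10.6 CPM (7.004 to 15.5). Node and notochord-like cells, which also come from the anterior streak and express Foxa2, had Gata6 at 5.88, 5.87 and 8.39 CPM and Gata4 at 4.25, 1.96 and 2.10 CPM.

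In mesoderm, Gata4 and Gata6 were used together, with more Gata6 than Gata4 UMIs in the class in every library. Mesp1 marks mesoderm as it leaves the streak, and Hand1 marks lateral, heart and extraembryonic mesoderm and also trophoblast. In embryonic mesoderm-like cells Gata6 stood at 67.1 CPM (64.6 to 69.6) at E7.0, 56.8 CPM (51.5 to 62.4) at E7.25 and 28.3 CPM (26.1 to 30.7) at E7.5 posterior. Gata4 stood at 37.4 CPM (35.5 to 39.3), 48.3 CPM (43.5 to 53.5) and 17.9 CPM (16.1 to 19.8). Both were lowest at E7.5 posterior with the filters used here, with log2 ratios over E7.25 of -1.002 (-1.18 to -0.82) for Gata6 and -1.43 (-1.65 to -1.22) for Gata4. Of all genes at 20 CPM or more in this class, 1.88% were at least 2-fold lower in that comparison. Other filters and clusters changed these ratios, and for Gata6 also the direction. At a limit of 5% mitochondrial UMIs, with another rule for doublets, the log2 ratio was 0.09 for Gata6 and -0.44 for Gata4, and with each library clustered by itself it was -0.13 and -0.71.

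Clusters within the class show how uneven the E7.5 posterior mesoderm was. Cluster 4, with Foxc2 and Tcf15 of paraxial mesoderm (1399 cells of E7.5 posterior), had Gata4 at 22.9 CPM and Gata6 at 38.7 CPM. Cluster 11, with Aldh1a2, Hes7 and Tbx6 of presomitic mesoderm (744 cells of the same library), had them at 5.70 and 5.98 CPM. Both genes were thus far lower in the presomitic cluster than in the paraxial cluster. At E7.0, cluster 2, with Myl7 and Kdr (1537 cells), had Gata4 at 49.7 CPM and Gata6 at 75.0 CPM, and cluster 5, with Mixl1 and Mesp1 (1339 cells), had 23.0 and 57.9 CPM. Cluster 7 at E7.25, with Myl7 and Smarcd3 of lateral and heart mesoderm (908 cells), had 48.5 and 56.8 CPM. Among these 5 clusters both genes were highest in cluster 2 and lowest in cluster 11.

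Extraembryonic mesoderm-like cells, which give rise to the allantois and the mesoderm of the yolk sac and amnion, had Gata6 at 48.2 CPM (43.1 to 53.8) at E7.25 and 70.5 CPM (64.5 to 76.9) at E7.5 posterior. Gata4 stood at 29.5 CPM (25.5 to 33.9) and 39.3 CPM (34.9 to 44.2). Cluster 22 held 145 cells of E7.25 with a median of 18430 UMIs and Gata6 at 20.7 CPM. Without it Gata6 stood at 72.3 CPM at E7.25, and the log2 ratio of E7.5 posterior over E7.25 was -0.04 in place of 0.55. That of Gata4 was 0.22 in place of 0.42. When the libraries were clustered separately, both ratios were -0.19. Markers of visceral endoderm summed to 1320 CPM in this class at E7.25, with 14 of 15 at 5 CPM or more, and to 90.7 CPM at E7.5 posterior, with 6 of 15. Their part in the Gata4 and Gata6 levels was not tested. Gata2 stood at 9.22 CPM (7.05 to 11.8) and 4.55 CPM (3.14 to 6.40) in this class, and Gata3 at 6.65 CPM (4.83 to 8.93) and 6.90 CPM (5.12 to 9.10).

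**Figure D4:**
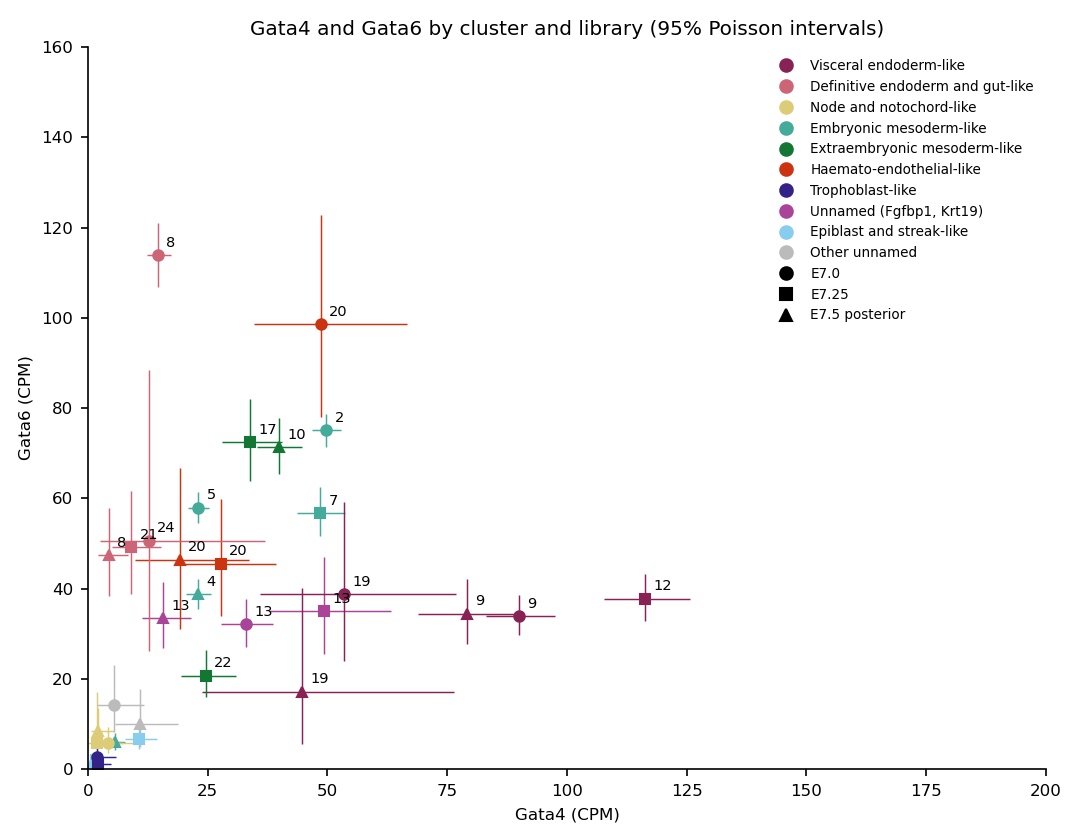
Gata4 (horizontal axis, CPM) against Gata6 (vertical axis, CPM) in each cluster and library with 50 or more cells. Colours are classes, shapes are libraries, bars are 95% Poisson intervals and numbers are cluster numbers for levels over 15 CPM. Visceral endoderm-like clusters 9 and 12 have the highest Gata4 levels, definitive endoderm-like cluster 8 at E7.0 has the highest Gata6 level at low Gata4, and mesoderm-like clusters range from low to high levels of both.

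The marker gates measured mesoderm without clusters. Cells with 2 or more Mesp1 UMIs and no Hand1 UMI (2376, 713 and 1458 cells) had Gata4 at 34.9, 36.0 and 22.1 CPM and Gata6 at 64.3, 34.5 and 33.2 CPM in order of stage. In these cells at E7.25 the intervals of Gata4 (31.8 to 40.6) and Gata6 (30.4 to 39.0) overlapped. Gata6 was not the higher of the pair, unlike in the class. The gate also held cells of other classes, with 66.5% embryonic mesoderm-like at E7.25 against 93.6% at E7.0. Cells with 2 or more UMIs of both Mesp1 and Hand1 (114, 142 and 200 cells) had Gata4 at 50.7 CPM (40.6 to 62.5), 39.2 CPM (29.5 to 51.2) and 40.5 CPM (32.0 to 50.5). Gata6 stood in these double-positive cells at 83.3 CPM (70.2 to 98.2), 58.1 CPM (46.1 to 72.3) and 40.5 CPM (32.0 to 50.5). At E7.0 and E7.5 posterior Gata4 was thus higher in Mesp1 cells that also had Hand1, with intervals that do not overlap, and at E7.25 the intervals overlapped. Gata6 was higher in the cells with both at E7.0 and E7.25, with intervals that do not overlap. At E7.5 posterior its intervals overlapped (30.3 to 36.2 without Hand1). The gates held different classes at E7.5 posterior, where 81% of the cells with both were extraembryonic mesoderm-like and 80.6% of those without Hand1 were embryonic mesoderm-like. Cells with Hand1 and neither Mesp1 nor Elf5 had Gata6 at 74.0 CPM (63.6 to 85.7) in 260 cells at E7.25 and 64.5 CPM (53.5 to 77.0) in 172 cells at E7.5 posterior. Gata2 stood in those cells at 23.6 CPM (17.9 to 30.5) and 4.76 CPM (2.17 to 9.03), with intervals that do not overlap. Of the cells in this gate, 80.4% and 80.2% were extraembryonic mesoderm-like. That whole class had Gata2 at only 9.22 CPM (7.05 to 11.8) at E7.25. The part of the other cells of the gate in its Gata2 level was not tested.

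**Figure D5:**
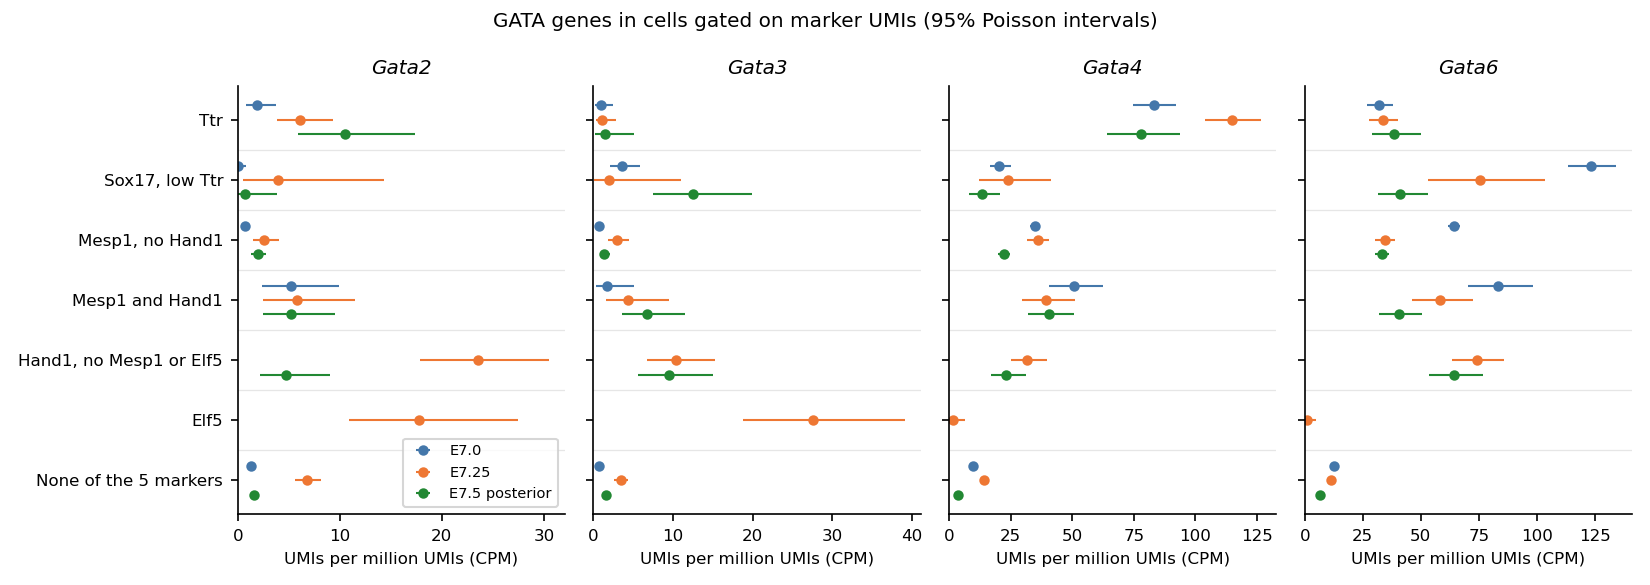
Level of each GATA gene (CPM, horizontal axis, linear, a different range in each panel) in cells gated on marker UMIs after thinning to 5000 UMIs (vertical axis), for E7.0 (blue), E7.25 (orange) and E7.5 posterior (green). Points are sums over gates with 50 or more cells and bars are 95% Poisson intervals. Ttr cells are high in Gata4 (77.9 to 115 CPM), Sox17 cells with low Ttr are high in Gata6 (41.2 to 123 CPM), and Elf5 cells hold Gata2 and Gata3 with almost no Gata4 or Gata6.

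Haemato-endothelial-like cells (57, 126 and 60 cells, all in cluster 20) used Gata6 and Gata4 as well as Gata2. Gata6 stood at 98.5 CPM (78.0 to 123) at E7.0, 45.5 CPM (33.9 to 59.9) at E7.25 and 46.4 CPM (31.1 to 66.6) at E7.5 posterior. Gata4 stood at 48.6 CPM (34.6 to 66.5), 27.7 CPM (18.8 to 39.3) and 19.2 CPM (9.92 to 33.5). Gata2 went from 79.8 to 118 CPM between E7.0 and E7.25, with a log2 ratio of 0.56 (0.12 to 1.02), while that of Gata6 was -1.11 (-1.65 to -0.59). Genes of red blood cells were low. Of 7 primitive blood markers, 2 or 3 reached 5 CPM, and they had summed levels of 28.7, 78.6 and 41.6 CPM. Gata1, the GATA factor of red blood cells, stood at 11.2, 36.6 and 30.4 CPM in this class.

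Trophoblast-like cells used Gata2 and Gata3 and almost no Gata4 or Gata6. Trophoblast forms the fetal part of the placenta, and Elf5 is a transcription factor of its stem cells. Gata3 stood at 22.4 CPM (15.6 to 31.1) in 107 cells at E7.0, 96 of them in cluster 23, and 30.003 CPM (23.9 to 37.2) in 287 cells of cluster 18 at E7.25. Its log2 ratio between them was 0.42 (-0.17 to 1.04), so no difference was detectable at this depth. Gata2 stood at 3.84 CPM (1.41 to 8.36) and 26.0 CPM (20.3 to 32.8), with a log2 ratio of 2.76 (1.57 to 4.25). In this class 3.08% of all genes at 20 CPM or more were at least 2-fold higher at E7.25. Gata2 UMIs numbered 0.171 (0.0589 to 0.412) for each Gata3 UMI at E7.0 and 0.866 (0.621 to 1.2) at E7.25. The higher Gata2 level at E7.25 was not particular to trophoblast-like cells. In epiblast and streak-like cells Gata2 stood at 0.0844, 1.23 and 0.936 CPM in order of stage. Its log2 ratio of E7.25 over E7.0 there was 3.86 (2.12 to 6.25), from 21 and 3 UMIs. In visceral endoderm-like cells that ratio was 2.19 (1.31 to 3.16).

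Gata4 in trophoblast-like cells stood at 1.92 CPM (0.396 to 5.61) and 2.20 CPM (0.806 to 4.78), and Gata6 at 2.56 CPM (0.697 to 6.55) and 1.10 CPM (0.226 to 3.21), near the levels of epiblast and streak-like cells. The gate of 2 or more Elf5 UMIs gave 116 cells at E7.25, of which 99.1% were trophoblast-like. These Elf5 cells had Gata3 at 27.6 CPM (18.7 to 39.2), Gata2 at 17.8 CPM (10.9 to 27.5), Gata4 at 1.78 CPM (0.216 to 6.43) and Gata6 at 0.890 CPM (0.0225 to 4.96). At E7.0 the gate of 1 or more Elf5 UMIs was needed to reach 50 cells. It gave 77 cells with Gata3 at 22.8 CPM and Gata2 at 3.51 CPM. At E7.25 this looser gate gave 227 cells, with Gata4 at 7.27 CPM and Gata6 at 6.06 CPM. Of the 12 haemato-endothelial markers, 3 at E7.0 and 4 at E7.25 reached 5 CPM in trophoblast-like cells, with sums of 97.3 and 104 CPM, and Fli1, Gfi1b and Sox18 were at 0 in both libraries. Cbfa2t3, a corepressor of blood cells that is not among those markers, stood at 10.2 and 24.9 CPM, against 0.253 and 0.642 CPM in epiblast and streak-like cells. Maternal decidua markers summed to 3.20 and 2.20 CPM, with 0 of 7 at 5 CPM.

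Epiblast and streak-like cells, the source of the embryo proper, served as the reference class, with low levels of all 4 members. Gata4 stood there at 1.41, 3.74 and 0.909 CPM and Gata6 at 1.49, 3.09 and 1.23 CPM in order of stage. At E7.25 the class included 427 streak-like cells of cluster 16, with Gata4 at 10.6 CPM and Gata6 at 6.75 CPM, and at E7.0 it included none. Under 6 other filters and clusterings the E7.0 class had Gata6 at 4.76 to 6.91 CPM, and in 5 of them it held 374 to 1344 streak-like cells. The log2 ratio of E7.25 over E7.0 in this class was 1.05 for Gata6, and it was between -1.94 and -0.56 under those 6 settings. That of Gata4 was 1.41, and it was -0.59 at a minimum of 500 detected genes and -0.04 with each library clustered by itself. Markers of visceral endoderm summed to 125, 236 and 72.8 CPM in the class, and their part in its Gata4 and Gata6 levels was not tested.

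Gata3 in epiblast and streak-like cells stood at 0.366 CPM (0.195 to 0.626), 2.63 CPM (1.92 to 3.51) and 2.17 CPM (1.72 to 2.69). The E7.5 posterior level depended on the processing. It was 0.796 CPM with each library clustered by itself, 1.19 CPM at resolution 2 and 1.35 CPM at 5% mitochondrial UMIs. Under the remaining filters and clusterings it was 2.02 to 2.31 CPM. At E7.5 posterior, 97 of these cells had a UMI of Tfap2a after thinning to 5000 UMIs. This gene encodes a transcription factor of surface ectoderm. Their Gata3 level was 9.32 CPM (4.47 to 17.1), from 10 UMIs, against 1.99 CPM (1.56 to 2.51) in the cells with no Tfap2a UMI. This split was added after the data were examined, and the other libraries had under 50 such cells.

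Shares of cells with a UMI were higher in the classes with high levels than in epiblast and streak-like cells. Between libraries they did not always follow the order of the levels, as for Gata2 and Gata6 at E7.25 and E7.5 posterior. After thinning to 5000 UMIs, 39.4%, 47.5% and 28.3% of visceral endoderm-like cells had a Gata4 UMI in order of stage, against 0.682%, 1.32% and 0.478% of epiblast and streak-like cells. Median depths before thinning were 9630.5, 7609.5 and 7335 UMIs in the former and 11380, 8418.5 and 9667 in the latter, and the shares without thinning were 53.9%, 58.4% and 38.3%. For Gata6, 39.0%, 18.7% and 20% of definitive endoderm and gut-like cells (median 11030.5, 8140.5 and 8079 UMIs) had a UMI, against 0.639%, 1.26% and 0.538%, and without thinning 58.6%, 27.2% and 29.6%. For Gata2, 26.8%, 35.5% and 40.7% of haemato-endothelial-like cells (median 13399, 8317.5 and 9774 UMIs) had a UMI, against 0.0426%, 0.769% and 0.568%, and without thinning 49.1%, 55.6% and 60.0%. For Gata3, 9.18% and 16.3% of trophoblast-like cells (median 12843 and 9010 UMIs) had a UMI, against 0.170% and 1.21%, and without thinning 23.4% and 23.0%. A cell with no UMI is not shown to lack the gene.

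Cells with UMIs of both Gata4 and Gata6 were counted after thinning and set beside the product of the single shares, which is the share that independent detection within a class would give. In embryonic mesoderm-like cells the share with both was 6.23% (5.37 to 7.18), 6.19% (4.66 to 8.04) and 1.64% (1.14 to 2.28), and the product was 4.75%, 4.58% and 0.987%. The measured share lay above the product in every library there, with intervals that leave the product out. This class joins clusters that differ in both genes, such as clusters 4 and 11 at E7.5 posterior. Joining such clusters can by itself lift the share above the product. Shares within single clusters were not tested. In visceral endoderm-like cells the share was 5.93%, 8.52% and 6.62% and the product 5.80%, 8.11% and 4.79%, within the interval of the share in each library. Cells with both Gata2 and Gata3 were few even in trophoblast-like cells at E7.25, at 1.85% (0.604 to 4.27) beside a product of 1.87%.

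Over whole libraries the members differed between groups, beside the different makeup of the libraries. Gata2 stood at 1.23, 8.10 and 2.32 CPM and Gata3 at 1.25, 5.05 and 2.59 CPM in order of stage. Gata4 stood at 24.6, 31.7 and 13.0 CPM and Gata6 at 41.9, 27.0 and 19.4 CPM. Gata2, Gata3 and Gata4 were highest in the E7.25 library, where haemato-endothelial-like, trophoblast-like and visceral endoderm-like cells made up 2.53%, 5.75% and 14.3% of cells, against 0.733%, 1.38% and 8.54% at E7.0. The log2 ratio of Gata4 between those libraries was 0.36 (0.27 to 0.46), and it was 0.05 at a limit of 5% mitochondrial UMIs. Within several classes Gata2 was also higher at E7.25, with log2 ratios of 3.86 in epiblast and streak-like and 2.76 in trophoblast-like cells. Definitive endoderm and gut-like cells went the other way, with 0 Gata2 UMIs at E7.25 and 2 at E7.0. Gata3 had 2.84 in epiblast and streak-like and -1.71 in haemato-endothelial-like cells. Gata4 had 0.41 in visceral endoderm-like and -0.81 in haemato-endothelial-like cells. The part of makeup in the library levels was not tested. Gata2 and Gata3 never reached 20 CPM in a whole library. Of all genes that did, 4.30% differed at least 2-fold, higher or lower, between E7.25 and E7.0. The share was 4.10% for E7.5 posterior against E7.25 and 1.52% for E7.5 posterior against E7.0. Of the members that reached it, Gata4 was past 2-fold at E7.5 posterior over E7.25 (log2 ratio -1.29, -1.41 to -1.17), and Gata6 at E7.5 posterior over E7.0 (-1.11, -1.20 to -1.03).

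Against epiblast and streak-like cells of the same library, the classes that use each member stood far higher. The log2 ratio of Gata4 in visceral endoderm-like cells was 5.96 (5.54 to 6.40) at E7.0, and 5.03 to 5.38 under 5 of the other filters and clusterings. That of Gata6 in definitive endoderm and gut-like cells at E7.0 was 6.23, and 3.70 to 4.55 under 6 of them, where the reference class held more Gata6. That of Gata2 in haemato-endothelial-like cells at E7.25 was 6.59 and that of Gata3 in trophoblast-like cells at E7.25 was 3.51. These ratios are read against their background. Of all genes at 20 CPM or more, 22.2%, 23.0% and 22.2% were at least 2-fold higher in visceral endoderm-like cells in order of stage. In definitive endoderm and gut-like cells the shares were 3.00%, 4.62% and 4.61%.

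Genes that work with GATA factors were taken as lists, several of whose members are also markers that named the classes, so their counts describe the classes and support nothing further. Of 18 endoderm genes, 15 were measured in visceral endoderm-like cells and 14, 13 and 14 of them were at least 2-fold higher than in epiblast and streak-like cells, with a median log2 ratio of 5.79, 5.55 and 5.57 against 0.07, 0.11 and 0.07 for all genes. Hnf4a, a liver and gut regulator, stood at 107, 140 and 109 CPM there. In definitive endoderm and gut-like cells 3 of 6, 5 of 8 and 6 of 8 measured genes were higher, led by Sox17 (298, 179 and 226 CPM), Foxa2 (147, 115 and 160 CPM) and Hhex (119, 49.4 and 43.4 CPM). Hhex, like Gata6, was highest there at E7.0.

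Of 15 heart and lateral mesoderm genes, 4 of 5, 10 of 10 and 2 of 4 measured genes were at least 2-fold higher in embryonic mesoderm-like cells, where 3.59%, 4.10% and 3.45% of all genes were. In extraembryonic mesoderm-like cells 10 of 10 and 12 of 12 were, at E7.25 and E7.5 posterior, where 4.69% and 5.11% of all genes were. Hand1 stood at 45.6, 113 and 21.9 CPM in the former class and at 416 and 400 CPM in the latter. Of 16 trophoblast genes, 12 of 13 and 14 of 14 measured genes were higher in trophoblast-like cells at E7.0 and E7.25, where 11.3% and 12.4% of all genes were, among them Elf5 (278 and 296 CPM) and Tfap2c (104 and 118 CPM). Of 16 blood and endothelium genes, 8 of 9, 9 of 10 and 10 of 11 were higher in haemato-endothelial-like cells, where 6.85%, 8.21% and 8.15% of all genes were, among them Tal1 (183, 234 and 214 CPM) and Lmo2 (195, 183 and 222 CPM).

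Among the 8 cofactors and relatives, Zfpm1 binds GATA proteins directly. It stood at 67.2 and 110 CPM in trophoblast-like cells at E7.0 and E7.25, and at 46.2, 122 and 72.0 CPM in haemato-endothelial-like, 41.3, 58.5 and 32.7 CPM in visceral endoderm-like and 36.2, 65.7 and 24.7 CPM in embryonic mesoderm-like cells. Epiblast and streak-like cells had Zfpm1 at 1.83, 7.12 and 2.70 CPM. Definitive endoderm and gut-like cells, with the highest Gata6 level at E7.0, had Zfpm1 at only 6.69, 11.4 and 7.31 CPM. Zfpm2 was at most 0.366 CPM in both mesoderm-like classes. Ldb1, which bridges GATA complexes in blood, stood at 12.1, 6.99 and 9.35 CPM in visceral endoderm-like cells against 30.5, 20.3 and 27.2 CPM in epiblast and streak-like cells. It was thus at least 2-fold lower in all 3 libraries, as were 10.1%, 11.4% and 11.2% of all genes at 20 CPM or more.

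The genes most like each member were ranked by Pearson correlation of log2(CPM + 5) over 27 sums of a class and a library, among 8017 genes at 20 CPM or more in at least 1 sum. The sums share libraries and depth, and the correlations are a description. For Gata2 they were Gadd45g (0.954), Cbfa2t3 (0.926), Nfatc1 (0.919), Tal1 (0.909) and Fli1 (0.897). For Gata3 they were Anxa2 (0.876), Agpat2 (0.839), Ppp1r18 (0.838), Nenf (0.834) and Rab11fip1 (0.828), each highest in trophoblast-like cells at E7.25. Gata4 was most like Prdm6 (0.930), Prr5 (0.881), Tbx3 (0.880), P3h2 (0.871) and Usp51 (0.864), and Gata6 most like Asb4 (0.846), Maged1 (0.807), Gfpt2 (0.797), Slc4a4 (0.785) and Fn1 (0.778). Between the members, Gata4 and Gata6 had 0.742, Gata2 and Gata3 0.470, and Gata3 and Gata4 -0.123. By Spearman correlation 1, 2, 3 and 2 of the 5 genes were shared for Gata2, Gata3, Gata4 and Gata6.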

How the data were processed

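Single-cell RNA was measured with 10x Genomics 3' droplet libraries, and the deposited matrices hold UMI counts per gene and cell made with Cell Ranger 6.0.1, per the file headers. No source used here gives the genome build behind the counts or the strand setting. Counts were used as deposited. Cells with fewer than 1000 detected genes or over 10% mitochondrial UMIs were left out, as were predicted doublets (163, 206 and 570 cells in order of stage). At E7.5 posterior the doublet caller marked only 12 cells, so the highest scores were removed instead. The kept cells held 104387498, 44329769 and 77489656 UMIs. They were clustered with Leiden (leidenalg 0.10.2, 2000 variable genes, 30 components, 15 neighbours, resolution 1) without genes whose symbol starts with Gata, which gave 25 clusters named from 16 marker lists with at least 3 markers. Nascent, paraxial, lateral and heart mesoderm-like clusters were joined after the data were examined. Intervals are exact 95% Poisson, conditional binomial or Clopper-Pearson intervals (scipy 1.17.1), and the ratio script was tested on simulated data. TMM factors from edgeR 4.0.16 were an alternative. The members and lists were chosen with earlier results of these data known. Genes named are the members, the fixed lists and markers, and the 5 genes most like each member, and cluster leaders outside these were named after their values were seen.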

Additional observations from a re-analysis of the deposited data

Results flagged for a closer look

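In 5 cases a GATA gene moved one way in the epiblast and streak-like class and the other way in another class between 2 libraries, each with a counting interval that leaves out 0. The difference was not tested in any of them, since each group has 1 library. From E7.0 to E7.25 the log2 ratio of Gata3 was 2.84 (1.93 to 3.86) in epiblast and streak-like cells and -1.71 (-3.37 to -0.24) in haemato-endothelial-like cells. The former rests on 13 UMIs at E7.0 and 45 at E7.25, the latter on only 14 and 6. Gata4 had 1.41 and -0.81 in the same classes. Gata6 had 1.05 in epiblast and streak-like cells and -1.18 in definitive endoderm and gut-like cells. From E7.25 to E7.5 posterior Gata4 had 0.42 in extraembryonic mesoderm-like cells and -2.04 in epiblast and streak-like cells, and Gata6 had 0.55 and -1.33. Gata6 also went down from E7.0 to E7.25 in haemato-endothelial-like cells (-1.11) and embryonic mesoderm-like cells (-0.24). The epiblast and streak-like class held streak-like cells only at E7.25. Its Gata6 ratio of E7.25 over E7.0 was between -1.94 and -0.56 under 6 other filters and clusterings, so the opposite movement of Gata6 was not found there. Its Gata4 ratio was -0.59 at a minimum of 500 detected genes and -0.04 with each library clustered by itself. With each library clustered by itself the ratios in extraembryonic mesoderm-like cells were -0.19 for Gata4 and Gata6. The Gata6 value in extraembryonic mesoderm-like cells was -0.04 without the cluster of highest depth.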

How the results depend on the processing

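Some log2 ratios that were at least 2-fold in size changed sign under an alternative. In epiblast and streak-like cells the log2 ratio of E7.25 over E7.0 became -0.59 for Gata4 and -1.94 for Gata6 at a minimum of 500 detected genes. With each library clustered by itself it became -0.038 for Gata4 and -1.47 for Gata6. For Gata6 it was -0.65 at 2000 detected genes, -1.25 at 5% mitochondrial UMIs, -1.01 with doublets kept and -0.56 at resolution 2. In embryonic mesoderm-like cells Gata2 had -1.16 at 5% mitochondrial UMIs and -0.39 with doublets kept for E7.25 over E7.0, and 1.57 and 0.86 for E7.5 posterior over E7.25, where Gata6 had 0.089 at 5%. Smaller log2 ratios whose intervals leave out 0 changed sign too. In embryonic mesoderm-like cells Gata4 for E7.25 over E7.0 went from 0.37 to -0.14 (500 genes), -0.58 (5%), -0.18 (doublets kept) and -0.12 (each library by itself), and in visceral endoderm-like cells from 0.41 to -0.10 (5%). In extraembryonic mesoderm-like cells, for E7.5 posterior over E7.25, Gata4 went from 0.42 to -0.034 (500 genes), -0.00078 (2000 genes), -0.51 (5%) and -0.19 (each library by itself), and Gata6 from 0.55 to -0.30 (5%), -0.19 (each library by itself) and -0.04 without the cluster of highest depth. The cause was not tested. Gata4 in visceral endoderm-like over epiblast and streak-like cells at E7.0 was 5.03 (500 genes), 5.36 (2000 genes), 5.29 (5%), 5.38 (resolution 2) and 5.27 (each library by itself). Gata6 in definitive endoderm and gut-like cells was 3.70, 4.22, 4.55, 4.48 and 4.31 in the same order, and 4.50 with doublets kept. Over whole libraries Gata4 was 0.054 (5%), 0.17 (TMM) and 0.14 (median of ratios) for E7.25 over E7.0, and -1.15 (5%) and -1.04 (median of ratios) for E7.5 posterior over E7.0. Gata6 was -0.83 (TMM) and -0.86 (median of ratios) for E7.25 over E7.0, -1.21 (5%), -1.20 (TMM) and -1.22 (median of ratios) for E7.5 posterior over E7.0, and -0.37 with both scalings for E7.5 posterior over E7.25. At 5% the rule for doublets changed too. TMM factors moved ratios of E7.25 over E7.0 by about the difference of their log2 factors, 0.10 and -0.10. No paired analysis was possible because each group has 1 library, and for the same reason no library could be left out.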

Other observations

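The family's other members were also measured. Gata1, best known from red blood cells, was highest in haemato-endothelial-like cells, and it also stood at 6.14, 8.24 and 5.48 CPM in definitive endoderm and gut-like cells in order of stage, against 0.253, 0.584 and 0.374 CPM in epiblast and streak-like cells. In visceral endoderm-like cells Gata1 had 3, 0 and 2 UMIs. Gata5, known from heart and endoderm, stood in extraembryonic mesoderm-like cells at 4.84 CPM in the E7.25 library and 10.6 CPM in that of E7.5 posterior and had at most 3 UMIs in either endoderm class in any library. No gate for Gata1 or Gata5 was made.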
